A study of Mus musculus with 6 samples.

Results

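The Hox genes of the A, B, C and D clusters were described in neural stem cells grown from the embryonic mouse brain. A member was any gene whose symbol names a Hox gene of one of the 4 clusters and that had a probe set annotated to that symbol alone. This gave 37 members among 19938 genes and 35556 probe sets, namely 10 of cluster A and 9 each of clusters B, C and D. Hoxb8 shared its probe set with Hoxb7 and is not a member. Each member was measured by 1 probe set.

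The cultures came from wild type C57BL/6 mice, labelled female, at embryonic day 17.5, and fell into 2 groups of 3 arrays, the subventricular zone of the third ventricle and that of the lateral ventricle. Both groups grew in low-attachment dishes with FGF and EGF at 20 ng/ml each, so neither group was without growth factor. The values are total RNA of whole cultures, in log2 units per probe set. Lateral ventricle array 2 stood apart from the other 2 arrays of its group. Across all genes it correlated at 0.980 and 0.982 with lateral ventricle arrays 1 and 3, and at 0.991 with each array of the third ventricle. The 6 stem cell markers Sox2, Nes, Vim, Fabp7, Pax6 and Sox9 were above background in all 6 arrays. Of the markers of other cells, 0 of 4 for blood and 0 of 4 for endothelium were above it in all 6 arrays. So were 0 of 3 for microglia and 4 of 6 mesenchymal ones (Twist1, Prrx1, Col1a1 and Col1a2). Of measured regional markers, 4 of 4 for hindbrain and spinal cord other than Hox were above it throughout (Egr2, Gbx2, Lbx1 and Pax2). The counts were 2 of 3 for the telencephalon (Emx1 and Lhx2) and 2 of 4 for the hypothalamus (Nkx2-1 and Nkx2-2). Over all genes the share was 55.3%. Of the regional markers named, Egr2, Emx1, Lhx2 and Nkx2-2 also passed the higher transcription factor gauge, given further on, in all 6 arrays. Lbx1 passed that gauge in 5 arrays, Gbx2 in 3, Pax2 in 1 and Nkx2-1 in 0.

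Hox genes encode homeodomain transcription factors that give cells their position along the body axis. Within a cluster, the order of the genes follows the order in which they are used from head to tail, and the low-numbered genes respond to retinoic acid. In the developing nervous system they are expressed in the hindbrain and spinal cord, while the forebrain, which holds both ventricles studied here, is known to lie in front of their domains. Polycomb complexes keep Hox clusters silent where they are not used, Trithorax proteins keep them active, and the Pbx and Meis proteins bind DNA beside Hox proteins as cofactors.

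The clusters also carry microRNA genes, and those on the array are shown by a mature sequence so that related genes can be recognised. Sequences and positions are from RefSeq on GRCm38.p6. They run 5′ to 3′, with the seed, bases 2 to 8, in capitals. The genes of miR-10a, in cluster B, and miR-10b, in cluster D, give the same seed, and those of miR-196a, in clusters B and C, and miR-196b, in cluster A, share another. For miR-615, in cluster C, the 3p arm is shown.
mmu-miR-10a-5p, chr11:96317186-96317208, plus strand: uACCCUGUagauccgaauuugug
mmu-miR-10b-5p, chr2:74726074-74726096, plus strand: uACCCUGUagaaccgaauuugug
mmu-miR-196a-5p of Mir196a-1, chr11:96265187-96265208, plus strand: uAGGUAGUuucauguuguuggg
mmu-miR-196a-5p of Mir196a-2, chr15:102973365-102973386, plus strand: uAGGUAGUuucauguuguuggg
mmu-miR-196b-5p, chr6:52230129-52230150, minus strand: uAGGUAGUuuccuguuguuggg
mmu-miR-615-3p, chr15:103014969-103014990, plus strand: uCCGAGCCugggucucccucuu

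Promoters of 21 members have an entry in the RefSeq promoter table (GRCm38.p6; 250 bases before to 50 after the start). In the mouse hindbrain Hoxb1 is known to sustain its own transcription through sites bound by Pbx and Hox proteins together, so the Pbx-Hox motif TGATNNAT was searched on both strands, with overlapping matches allowed. The 2 promoters that held it are shown with the match in capitals: Hoxb1, above background in all 6 arrays as given further on, and Hoxa2, above it in 0.
Hoxb1, chr11:96365508-96365807, plus strand: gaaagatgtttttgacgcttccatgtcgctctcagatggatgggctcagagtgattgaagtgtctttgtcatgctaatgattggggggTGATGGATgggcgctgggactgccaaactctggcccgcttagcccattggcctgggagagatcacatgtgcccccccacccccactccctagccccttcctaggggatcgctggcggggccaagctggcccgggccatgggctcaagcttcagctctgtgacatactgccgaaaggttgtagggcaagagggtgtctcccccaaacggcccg
Hoxa2, chr6:52164782-52165081, minus strand: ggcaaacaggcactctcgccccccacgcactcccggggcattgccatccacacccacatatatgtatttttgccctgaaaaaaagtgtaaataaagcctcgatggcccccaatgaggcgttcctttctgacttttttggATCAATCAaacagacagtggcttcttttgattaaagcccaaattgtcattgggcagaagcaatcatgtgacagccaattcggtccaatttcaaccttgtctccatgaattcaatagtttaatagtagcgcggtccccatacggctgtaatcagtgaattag
Each of these promoters held 1 match. The share with a match was 9.52% of the 21 Hox promoters and 9.04% of 27025 promoters in the table, and a match is no sign that a factor binds.

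Most Hox genes gave no signal above the 95th percentile of olfactory receptor genes in either region. Their median level was 4.28, beside 3.44 for the olfactory receptor genes. Background was gauged on each array by 1027 olfactory receptor genes, which neural stem cells are not known to use, and a gene counted as above it where its value passed their 95th percentile, 5.03 to 5.16 over the 6 arrays. Hoxa4, Hoxa6, Hoxb1 and Hoxb3 passed it in all 6 arrays, 4 of 37 members or 10.8%, against 55.3% of all genes. Hoxb7, Hoxd9 and Hoxd13 passed it in 1 to 3 arrays. The remaining 30 members passed it in 0 of 6 arrays, or 81.1%, against 34.4% of all genes. These shares describe signal against a gauge and not amounts of RNA, since probe sets differ in how brightly they respond.

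The gauge decides how many members count as above background. Another gauge was the 95th percentile of 63 transcription factor genes, mostly of other tissues such as heart, gut and muscle (5.56 to 5.77). Against it Hoxa4 and Hoxb3 stayed above in all 6 arrays, Hoxb1 in 5 and Hoxa6 in 1. The set is called non-neural below, but its members Crx and Ptf1a also act in neural tissue. Its members Cdx1, Cdx2 and Cdx4 are also among the upstream regulators of Hox genes. Against the 95th percentile of 163 vomeronasal receptor genes, which was lower (4.37 to 4.77), 9 members were above in all 6 arrays and 19 of 37 in at least 1. Of the 63 transcription factor genes themselves, 8 (12.7%) passed the olfactory gauge in all 6 arrays, beside 10.8% of the Hox genes and 30 (2.92%) of the olfactory receptor genes. The promoters of the olfactory receptor genes had a median GC content of 35.0%, and those of the 21 Hox members with an entry 58.0%. Over all genes with an entry it was 52.7%, nearer to the Hox members. The base composition of the probes was not tested.

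**Figure D1:**
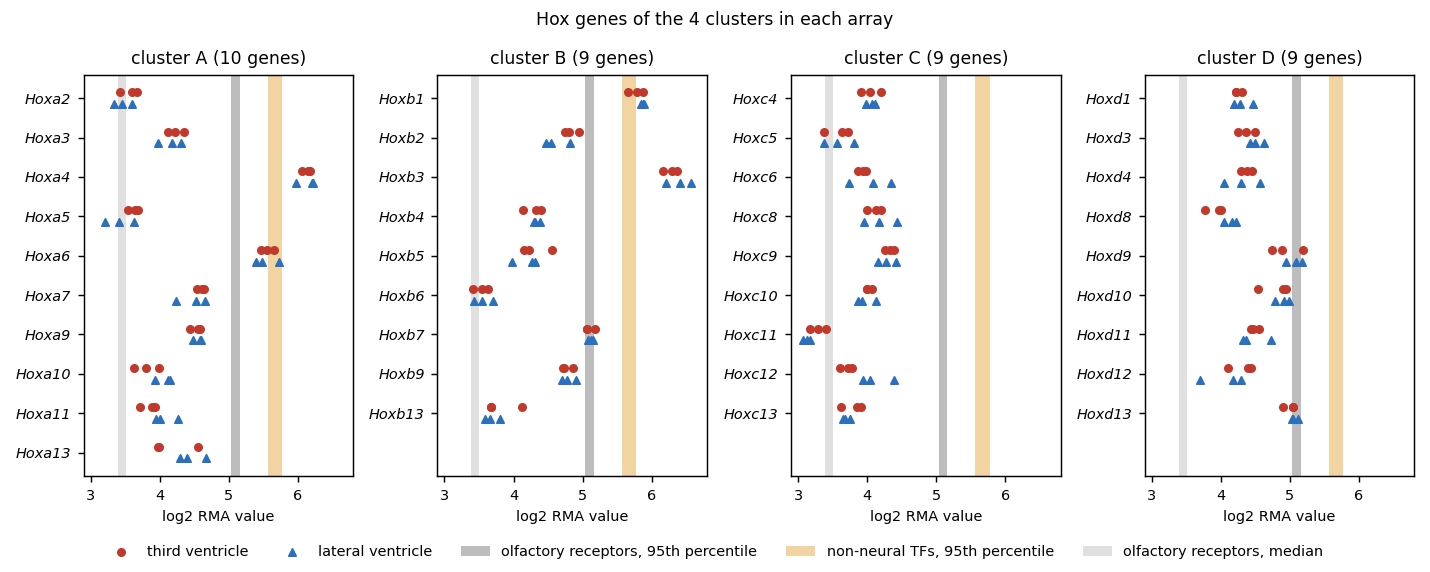
Log2 RMA values (horizontal axis) of the 37 Hox genes in each array, one panel per cluster, with the 3 arrays of the third ventricle as red circles and the 3 of the lateral ventricle as blue triangles. Bands span the 6 arrays' values of the olfactory receptor median (light grey), their 95th percentile (grey) and the 95th percentile of non-neural transcription factors (orange). Hoxa4 and Hoxb3 lie to the right of every band, and 30 genes lie to the left of the grey one.

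Hoxb3, a hindbrain gene of the B cluster that helps to pattern the caudal rhombomeres, had values of 6.37, 6.29 and 6.16 in the third ventricle arrays and 6.20, 6.41 and 6.57 in the lateral ventricle arrays. The groups overlapped, with means of 6.27 ± 0.10 and 6.39 ± 0.19 (SD, n = 3 each) for the third and the lateral ventricle. Hoxa4, a gene of the caudal hindbrain and cervical cord, had values of 6.18, 6.06 and 6.14 in the third ventricle and 5.97, 6.20 and 6.22 in the lateral ventricle arrays. Its highest and its lowest value were both from lateral ventricle arrays.

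Hoxb1, the gene that marks the fourth rhombomere, had values of 5.65, 5.87 and 5.78 in the third and 5.89, 5.85 and 5.88 in the lateral ventricle arrays. Array 1 of the third ventricle was the lowest of the 6, and the groups overlapped. Hoxa6, which helps to pattern the cervical and thoracic region, had values of 5.47, 5.55 and 5.65 in the third and 5.47, 5.73 and 5.40 in the lateral ventricle arrays. Lateral ventricle arrays held both the highest and the lowest value. In the annotation Hoxa4 and Hoxa6 lie within or across the extent of Hoxa3, and Hoxb3 across that of Hoxb4. Hoxa3 was below the gauge in all 6 arrays (3.98 to 4.35), as was Hoxb4 (4.14 to 4.404), and which transcript each probe set caught was not tested.

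Hoxb7, Hoxd9 and Hoxd13 lay at the edge of the gauge. Hoxb7 had 5.06, 5.06 and 5.17 in the third and 5.07, 5.12 and 5.15 in the lateral ventricle arrays, a range of 0.12, and passed the gauge in 1 and 2 arrays of the third and the lateral ventricle. Hoxd9, used in the lumbar cord and limb, had 4.73, 4.88 and 5.18 in the third and 5.18, 5.08 and 4.95 in the lateral ventricle arrays, and passed in 1 array of each region. Hoxd13, a gene of the distal limb and genital tubercle, had 4.90, 5.04 and 5.04 in the third and 5.12, 5.04 and 5.03 in the lateral ventricle arrays, and passed only in lateral ventricle array 1. For none of these 3 did the values separate the regions.

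By cluster, 2 of 10 A genes and 2 of 9 B genes were above background in all arrays, and 0 of 9 C genes and 0 of 9 D genes. All 9 C genes were below it in every array. By position in the cluster, the count was 2 of 7 for paralogs 1 to 3, used in the hindbrain. It was 2 of 14 for paralogs 4 to 8, used from the caudal hindbrain to the thorax. For paralogs 9 to 13, used from the thoracic to the sacral cord and in limb and genital tract, it was 0 of 16. These splits depend on the gauge. Against the 95th percentile of vomeronasal receptor genes, Hoxb7, Hoxb9, Hoxd9, Hoxd10 and Hoxd13 also passed in all 6 arrays. Means of the 30 members below the olfactory gauge in all arrays ran from 3.21 to 4.85. They include Hoxa2, the only Hox gene of the second rhombomere, at 3.56 ± 0.13 in the third and 3.46 ± 0.13 in the lateral ventricle cultures (SD, n = 3 each), and Hoxb2 at 4.83 ± 0.10 and 4.61 ± 0.18 in the third and the lateral ventricle. They also include Hoxa9, known for its role in blood stem cells, at 4.52 ± 0.080 in the third and 4.55 ± 0.066 in the lateral ventricle cultures (SD, n = 3 each).

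Apart from Hoxa11, Hoxc11, Hoxc12 and Hoxd8, described further on, the values of the regions overlapped for each member below the gauge. In cluster A, Hoxa5, known from lung and phrenic motor neuron development, averaged 3.63 ± 0.079 in the third and 3.42 ± 0.21 in the lateral ventricle cultures (SD, n = 3 each, for all means that follow). Hoxa7 averaged 4.59 ± 0.052 in the third and 4.47 ± 0.22 in the lateral ventricle. Hoxa10, a gene of the lumbar cord and uterus, averaged 3.80 ± 0.18 and 4.06 ± 0.12 in the third and the lateral ventricle. Hoxa13, which patterns the digits and the genital tract, differed by -0.27 with the widest spread of the cluster in the third ventricle, an SD of 0.33.

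In cluster B, Hoxb5, Hoxb6 and Hoxb9, trunk genes, differed by 0.12, -0.030 and -0.023 between the third and the lateral ventricle. Hoxb13, known from the prostate and tail, averaged 3.82 ± 0.26 in the third and 3.68 ± 0.11 in the lateral ventricle. In cluster C, Hoxc6 and Hoxc9, which in the cord mark the motor columns of the forelimb and the thorax, averaged 3.93 ± 0.055 and 4.33 ± 0.063 in the third and 4.06 ± 0.30 and 4.28 ± 0.13 in the lateral ventricle. Hoxc4, Hoxc8, Hoxc10 and Hoxc13 differed by 0.0026, -0.074, 0.046 and 0.098. For Hoxc6 the SD of the lateral ventricle exceeded the difference of -0.13.

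In cluster D, Hoxd10, a gene of lumbar motor neurons, averaged 4.80 ± 0.22 in the third and 4.90 ± 0.10 in the lateral ventricle. Hoxd1, Hoxd3, Hoxd4 and Hoxd11 differed by -0.057, -0.14, 0.073 and 0.013. Hoxd12, a gene of the distal limb, had the highest positive difference of all members, 0.26, with an SD of 0.18 in the third and 0.32 in the lateral ventricle (limma, adjusted p = 0.582). Hoxd10 and Hoxd11, and Hoxd3 and Hoxd4, overlap in the annotation, and which transcript their probe sets caught was not tested.

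**Figure D2:**
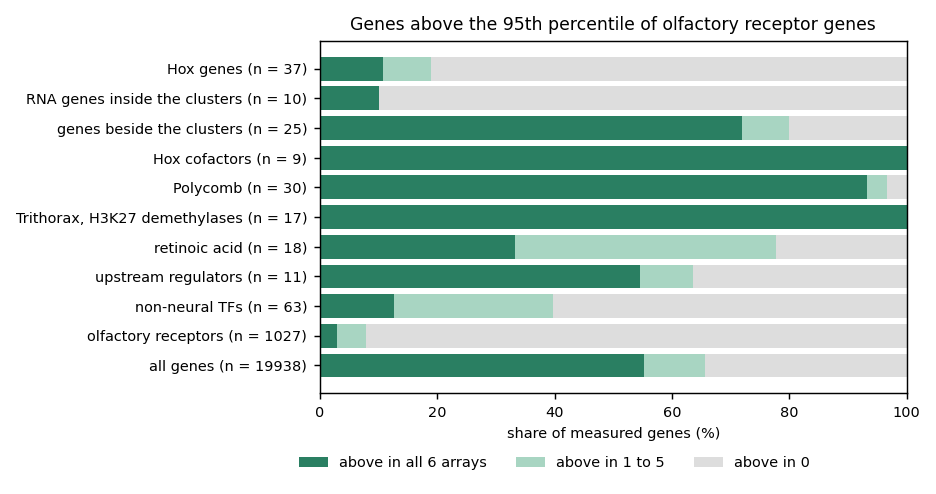
Share of measured genes (horizontal axis, percent) above the 95th percentile of olfactory receptor genes in all 6 arrays (dark), in 1 to 5 (light) or in 0 (grey), for the Hox genes, related lists, the gauges and all genes. The Hox bar reaches 10.8%, near the 12.7% of non-neural transcription factors and below the 55.3% of all genes.

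No Hox gene passed the test between the regions. In limma fitted across all 19938 genes, 0 of 37 members had an adjusted p below 0.05 (Benjamini-Hochberg), against 0.231% of all genes, and their adjusted p lay between 0.315 and 0.995. At an unadjusted p below 0.05 there was 1 member, lower in the third ventricle, against 12.6% of all genes (6.21% higher and 6.43% lower). Of the 6860 genes below background in every array, 343 were at that level. Of the members 16 had a positive and 21 a negative difference, and the median of the third minus the lateral ventricle was -0.018, beside -0.018 over all genes. Without lateral ventricle array 2, a fit that called 8.25% of all genes, 0 of 37 Hox genes passed (lowest adjusted p = 0.157). Among the 6860 genes below background in every array, that fit called 0.773%, and the fit of all 6 arrays called 0%. The share called among the other genes was therefore above 8.25%. Lateral ventricle array 2 resembled the third ventricle arrays, so leaving it out favours calls between the regions. This holds for every such fit below. With any other single array left out, 4 to 25 genes were called, against 1644 without this one.

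For the 4 members above background the intervals were narrow. The third minus the lateral ventricle was -0.12 for Hoxb3 (95% interval -0.40 to 0.16), -0.0030 for Hoxa4 (-0.24 to 0.23), -0.10 for Hoxb1 (-0.32 to 0.11) and 0.023 for Hoxa6 (-0.24 to 0.29), with limma adjusted p-values of 0.734, 0.994, 0.699 and 0.957. The bound furthest from 0 was that of Hoxb3, which corresponds to 1.32-fold in array signal. These 4 members had means of 5.54 to 6.33, not far above the gauge. Across all 37 members the bound furthest from 0 was 0.72 on the log2 scale. RMA values near background are compressed, so both bounds are for the array values and not the RNA. Foxd1, a forkhead factor of the hypothalamus, had the largest called difference on the same arrays, 2.78, with values of 6.68, 6.58 and 6.44 in the third and 3.80, 3.87 and 3.68, below the gauge, in the lateral ventricle arrays. The smallest called difference was that of Slitrk4, singled out after its values were seen, at -0.66.

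**Figure D3:**
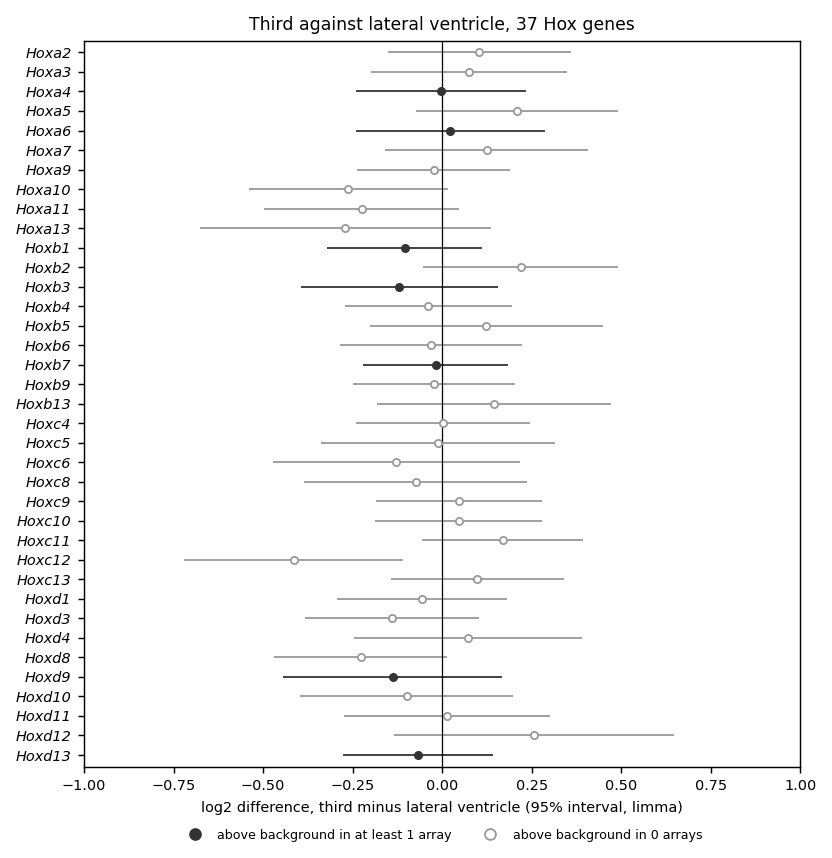
Log2 difference of the third minus the lateral ventricle (horizontal axis) with its 95% interval from limma for each of 37 Hox genes, filled where the gene was above background in at least 1 array and open where it was in 0. The points lie between -0.42 for Hoxc12 and 0.26 for Hoxd12.

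The groups did not overlap for 4 of 37 members, 1 higher and 3 lower in the third ventricle, against 17% of all genes, 7.77% higher and 9.24% lower. All 4 were below background in every array, and of the 6860 such genes 716 had groups that did not overlap. Hoxc12, a posterior gene of the C cluster, had 3.78, 3.61 and 3.73 in the third and 3.94, 4.39 and 4.04 in the lateral ventricle arrays, a difference of -0.42 (limma, adjusted p = 0.315). It was the member with the unadjusted p below 0.05, at 0.0138. Lateral ventricle array 2 held its highest value, and without that array the difference was -0.28 (adjusted p = 0.157).

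Hoxa11, known from limb and uterus, had 3.72, 3.89 and 3.93 in the third and 4.005, 4.27 and 3.94 in the lateral ventricle arrays, and the groups nearly touched. Hoxd8 had 3.76, 3.97 and 4.004 in the third and 4.04, 4.17 and 4.22 in the lateral ventricle arrays. Hoxc11 was the one of the 4 with higher values in the third ventricle, at 3.29, 3.41 and 3.17, against 3.13, 3.17 and 3.07 in the lateral ventricle arrays. Their adjusted p-values were 0.471, 0.416 and 0.521 (limma). Since both groups of each gene lay below the gauge, no fold is given.

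The range over the 6 arrays was 0.12 to 0.78 for the Hox genes with a median of 0.41, beside a median of 0.41 over all genes and 0.38 over the genes below background. Of the single arrays, 4, 4 and 6 of 37 members were above the gauge in arrays 1 to 3 of the third ventricle, and 7, 4 and 5 in lateral ventricle arrays 1 to 3. The Hox median per array was 4.22 to 4.26 in the third and 4.19 to 4.32 in the lateral ventricle. Lateral ventricle array 2, which stood apart over all genes, had a Hox median of 4.32 and lateral ventricle array 1 one of 4.19, so the lateral arrays enclosed those of the third ventricle. The probe set shared by Hoxb8 and Hoxb7 was also below the gauge in all 6 arrays, at 4.30, 4.51 and 4.34 in the third and 4.06, 3.997 and 4.35 in the lateral ventricle arrays.

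Of the 10 measured RNA genes inside the clusters, Mir615 was above the gauge in all 6 arrays and 9 in none, and 0 passed between the regions, nor did any at an unadjusted p below 0.05. Mir615, whose mature sequence is shown above and which lies within the extent of Hoxc5, had 6.65, 6.44 and 6.45 in the third and 6.53, 6.37 and 6.53 in the lateral ventricle arrays. Hoxc5 itself was below the gauge, at 3.63, 3.72 and 3.38 in the third and 3.38, 3.82 and 3.57 in the lateral ventricle arrays. Mir10a and Mir10b, the pair with 1 seed, averaged 2.29 and 2.36 in the third and 2.39 and 2.497 in the lateral ventricle cultures. Mir196a-1, Mir196a-2 and Mir196b, which share the other seed, averaged 4.29, 3.64 and 4.44 in the third and 4.17, 3.60 and 4.30 in the lateral ventricle cultures. Such probe sets read RNA over the precursor, and mature microRNAs were not measured separately. Hottip, a long RNA at the posterior end of cluster A known to help activate its neighbours, averaged 4.39 ± 0.13 in the third and 4.32 ± 0.092 in the lateral ventricle cultures (SD, n = 3 each).

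Skap2, the protein-coding gene beside the anterior end of cluster A, was the one gene beside the clusters that passed, and it was higher in the third ventricle cultures. Skap2 encodes a Src-associated adaptor protein. It had 8.66, 8.39 and 8.43 in the third and 7.40, 7.43 and 6.90 in the lateral ventricle arrays, so the lowest array of the third ventricle lay above the highest of the lateral ventricle. The difference was 1.25 (SE 0.16, limma, adjusted p = 0.0335), or 2.38-fold. Hoxa2 and Hoxa3, in the anterior portion of the cluster, stayed below background and differed by 0.10 (adjusted p = 0.754) and 0.075 (adjusted p = 0.840). On bulk cultures, more cells with Skap2 and more Skap2 RNA per cell cannot be told apart. Skap2 missed the threshold, with an adjusted p of 0.0635 without lateral ventricle array 1 and of 0.160, 0.185 and 0.206 without arrays 1, 2 and 3 of the third ventricle, with differences of 1.17 to 1.33. Without lateral ventricle array 2 the difference was 1.35 (adjusted p = 0.00196), and Cbx5 and Atp5g3 passed as higher and Nfe2l1 as lower, in a fit that called 8.25% of all genes.

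Of 25 measured 1 passed, against 0.231% of all genes, and at an unadjusted p below 0.05 there were 4 higher and 2 lower, against 6.21% and 6.43% of all genes. The median difference was 0.0095, beside -0.018 over all genes. At the posterior end of cluster A, Evx1, a homeobox gene related to the Hox family, was below background in all arrays, at 4.58, 4.47 and 4.54 in the third and 4.84, 4.43 and 4.74 in the lateral ventricle. Evx2, beside Hoxd13, passed the gauge in 5 arrays and averaged 5.28 ± 0.060 in the third and 5.25 ± 0.27 in the lateral ventricle cultures (SD, n = 3 each). Beside cluster B, Skap1, the relative of Skap2 found mainly in T cells, averaged 3.99 in the third and 3.99 in the lateral ventricle cultures. Ttll6, a tubulin polyglutamylase beside Hoxb13, averaged 4.04 and 4.42 in the third and the lateral ventricle, both below the gauge (adjusted p = 0.287).

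Mtx2, a mitochondrial import protein beside Hoxd1, averaged 7.62 ± 0.047 in the third and 7.70 ± 0.084 in the lateral ventricle cultures (SD, n = 3 each). Calcoco1, a coactivator beside Hoxc13, averaged 6.64 and 6.95, and Smug1, a DNA repair glycosylase beside Hoxc4, 5.17 and 5.28 in the third and the lateral ventricle. In all, 18 of the 25 neighbours were above background in all 6 arrays, against 55.3% of all genes and 4 of the 37 Hox genes.

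**Figure D4:**
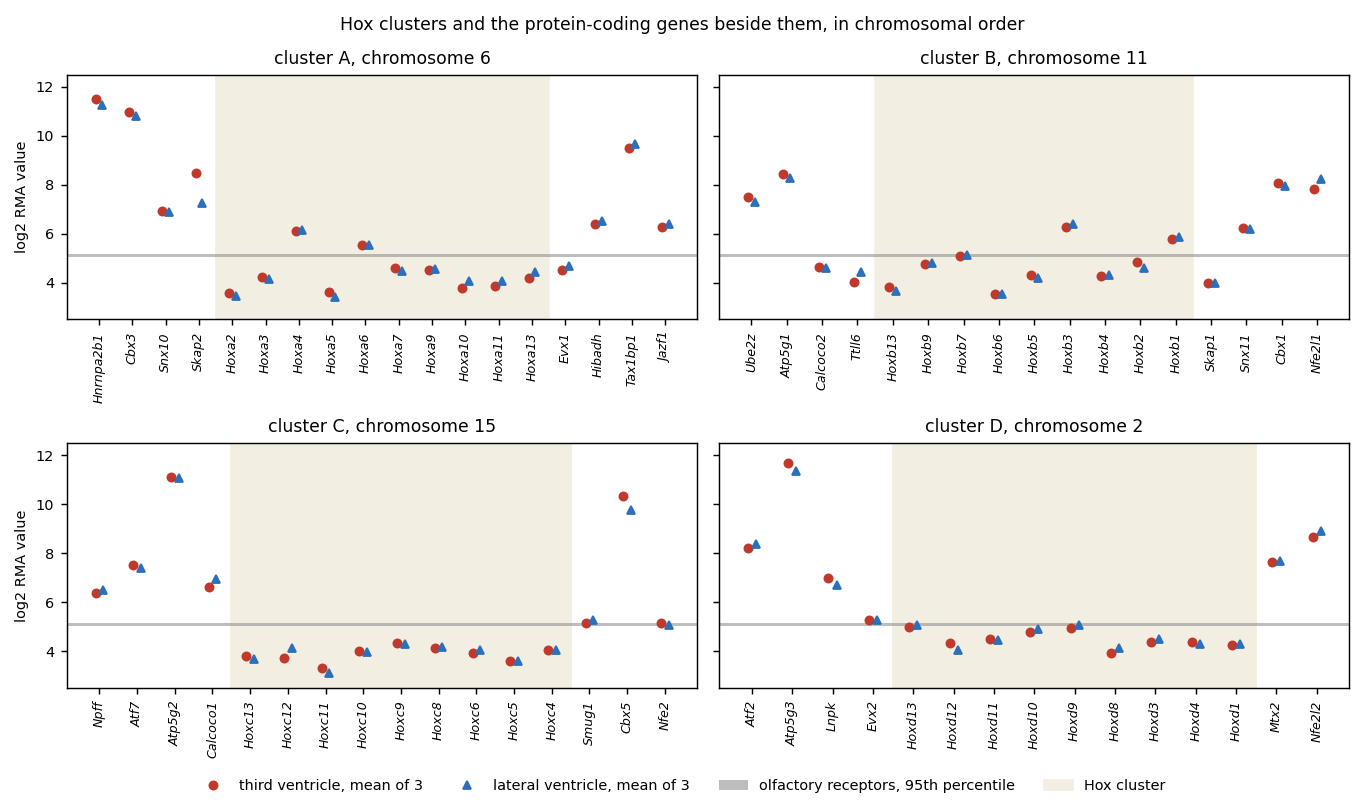
Mean log2 RMA value (vertical axis) of the third ventricle (red circles) and the lateral ventricle (blue triangles), 3 arrays each, for each measured Hox gene (shaded) and the protein-coding genes on either side, in the gene order of GRCm38.p6 and not to scale. The grey line is the 95th percentile of olfactory receptor genes. Skap2, left of cluster A, is at 8.50 in the third and 7.24 in the lateral ventricle, and cluster C lies wholly under the line.

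Genes of proteins that work with or on Hox genes were measured in the same cultures. The cofactor list held genes of the Pbx, Meis and Pknox families and geminin (Gmnn), a Hox-binding protein rather than a cofactor. Of its 9 measured genes, 9 were above background in all 6 arrays. None passed between the regions in limma, 2 were at an unadjusted p below 0.05 (1 higher, 1 lower), and the median difference was 0.0070. Over all genes 55.3% were above background in all arrays and 12.6% were at an unadjusted p below 0.05. Meis2, a cofactor that the ventral telencephalon also uses without Hox proteins, had 8.26, 7.90 and 8.05 in the third and 9.05, 9.40 and 8.85 in the lateral ventricle arrays, without overlap. Its difference was -1.03 (SE 0.16, adjusted p = 0.0620), and without lateral ventricle array 2 it was -0.88 (adjusted p = 0.00527). Pbx3 had 7.42, 7.27 and 7.28 in the third and 6.63, 7.09 and 6.56 in the lateral ventricle arrays, a difference of 0.56 (adjusted p = 0.252). Meis1 averaged 8.54 ± 0.044 in the third and 8.45 ± 0.28 in the lateral ventricle cultures (SD, n = 3 each).

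Gmnn, which binds Hox proteins and restrains DNA replication, showed the split among the lateral arrays. It had 7.51, 7.50 and 7.52 in the third and 5.34, 7.77 and 6.07 in the lateral ventricle arrays (adjusted p = 0.413). Lateral ventricle array 2 was the highest of all 6 and lateral ventricle arrays 1 and 3 were the lowest. Without lateral ventricle array 2, a removal that favours calls, 4 of the 9 listed genes passed. Pbx3 and Gmnn were higher and Meis2 and Meis3 lower. That fit called 8.25% of all genes but 0.773% of those below background in every array, of which the list held 0.

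Polycomb genes did not pass either. Of 30 measured, 28 were above background in all arrays, against 55.3% of all genes, and 0 passed. At an unadjusted p below 0.05 were 4 (1 higher, 3 lower), against 12.6% of all genes, and the median difference was -0.00031. Ezh2, the methyltransferase that deposits the repressive mark on histone H3 lysine 27, had 10.33, 10.31 and 10.34 in the third and 9.592, 10.46 and 9.596 in the lateral ventricle arrays (difference 0.44, adjusted p = 0.449). As with Gmnn, lateral ventricle array 2 lay near the arrays of the third ventricle. The other members with the highest mean signals were Phc3, a subunit of Polycomb repressive complex 1 (-0.095), and the histone-binding proteins Rbbp7 (0.31) and Rbbp4 (0.098). Without lateral ventricle array 2, Ezh2, Eed, Suz12 and Rbbp7 passed as higher and Cbx8 as lower. That fit called 8.25% of all genes but 0.773% of those below background in every array, of which the list held 1.

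Of 17 Trithorax and H3K27 demethylase genes, 17 were above background in all arrays, against 55.3% of all genes, and 0 passed. At an unadjusted p below 0.05 were 1 higher and 1 lower, against 6.21% and 6.43% of all genes, and the median difference was 0.027. Dpy30, a subunit of the H3K4 methyltransferases, differed by 0.37 (adjusted p = 0.336), the remodeller Chd7 by -0.38 (adjusted p = 0.347), Psip1, a chromatin tether of the Mll complex, by 0.27 and the methyltransferase subunit Ash2l by 0.027. Without lateral ventricle array 2, 3 of 17 passed as higher, Dpy30, Paxip1 and Psip1. That fit called 8.25% of all genes but 0.773% of those below background in every array, of which the list held 0.

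Retinoic acid is a well known inducer of Hox clusters. Of 18 measured genes of its synthesis, binding and signalling, 6 were above background in all arrays and 4 in none, 0 passed, 1 was higher and 1 lower at an unadjusted p below 0.05, and 15 had a negative difference, with a median of -0.062. Over all genes 10886 of 19938 differences were negative, with a median of -0.018. Of all genes, 55.3% were above background in all arrays and 12.6% were at an unadjusted p below 0.05. Among the retinoic acid genes with the highest mean signal, the coactivator Ncoa1 differed by -0.093 and the retinol dehydrogenase Rdh10 by -0.34. The binding protein Crabp1 differed by 0.16 and the receptor Rarb, itself a retinoic acid target, by -0.56 (limma, adjusted p = 0.413). Aldh1a1, which makes retinoic acid and was singled out after its values were seen, had 6.42, 6.11 and 5.83 in the third and 5.24, 5.31 and 5.21 in the lateral ventricle arrays, without overlap (difference 0.87, adjusted p = 0.0863). Aldh1a2, the main synthetic enzyme beside the hindbrain and cord, was below background in all 6 arrays. Without lateral ventricle array 2, Aldh1a1 passed as higher and Rdh10 as lower, beside 8.25% of all genes.

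Among 11 upstream regulators of Hox genes, 6 were above background in all arrays and 4 in none, and 0 passed, also without lateral ventricle array 2. Of these 11, 1 (Gbx2) was higher at an unadjusted p below 0.05, and the median difference was 0.016. Over all genes 6.21% were higher at that level, and 55.3% were above background in all arrays. Egr2, which drives Hox genes in the third and the fifth rhombomere and is also an immediate early gene, averaged 8.36 ± 0.057 in the third and 8.08 ± 0.42 in the lateral ventricle cultures (SD, n = 3 each). Otx2, a forebrain and midbrain gene, averaged 6.94 ± 0.29 and 7.01 ± 0.24 in the third and the lateral ventricle. Gdf11, a ligand that shifts Hox codes toward the tail, differed by -0.37 (adjusted p = 0.453) and the zinc finger factor Zfp703 by -0.065. Cdx2 and Cdx4, which activate trunk Hox genes, were below background in all 6 arrays.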

How the data were processed

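Total RNA of 6 cultures was measured on Affymetrix arrays. Per the labels' protocols, RNA was extracted with Trizol and amplified with the NuGEN Ovation Pico system from small amounts. Each deposited value is a log2 RMA signal of 1 probe set. The authors used Affymetrix Expression Console 1.1, as the submitters' processing notes give it. RMA corrects background, normalizes between arrays and summarizes probes. It compresses dim values, so differences near background are understated.

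Of 35556 probe sets, 21789 had 1 gene symbol, 1621 several, and the rest are unnamed here. Symbols of 21698 probe sets matched the RefSeq gene table of GRCm38.p6, and 0 changed. Where several single-symbol probe sets named a gene, the brightest on average over all arrays stood for it, which gave 19938 genes, with no filter on dim ones. The third minus the lateral ventricle was fitted with limma 3.58.1 (lmFit, eBayes) in R 4.3.3, and p-values were adjusted by Benjamini-Hochberg across all genes, with calls at 0.05. The fit was tested on simulated data. With 3 arrays against 3, the smallest two-sided p of an exact permutation is 0.1, so tests of single genes use limma, and the number of arrays limits precision. Replicate numbers are not tied to animals in the labels, and the p-values reflect only how far these cultures spread.

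The members, the gene lists, the gauges and the rule for naming genes were chosen with earlier results of these data known. The rule names every Hox gene, giving values in every array for those above background in any array, with groups that do not overlap or with an unadjusted p below 0.05, and of each list the passing genes, the genes flanking a cluster or otherwise the 4 with the highest mean. Genes named beyond it and the promoter motif were chosen after their values were seen. Alternatives were other probe set rules, a filter, normalizations, priors, array weights, a replicate block, a minimum fold of 1.2, other gauges and each array left out.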

Additional observations from a re-analysis of the deposited data

How the results depend on the processing

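In each of 14 alternatives of the fit 0 Hox genes passed, and 0 to 4 of them had an unadjusted p below 0.05. The count over all genes was 46, 158 with array weights, 17 with a minimum fold of 1.2 and 4 to 1644 with 1 array left out, highest without lateral ventricle array 2. The Hox median difference was -0.018, moved to -0.054 without the 40% of genes with the lowest mean, where 4 Hox genes remained, and ran from -0.054 to 0.016 with 1 array left out, positive without lateral ventricle array 2. Hox genes above background numbered 4, but 7 and 2 at the 90th and 99th percentile of olfactory receptor genes, 9 against vomeronasal receptor genes, 2 against non-neural transcription factors and 7 if 1 array was enough. Of the related lists' 120 genes 1 passed, 2 with a trended, robust prior or with array weights, 0 with a minimum fold of 1.2 and 0 to 18 with 1 array left out. Skap2 missed the threshold with a minimum fold of 1.2 (adjusted p = 0.0926) and in 4 of the 6 fits without 1 array. Differences near 0 changed sign: Hoxa4 was 0.0048 with quantile normalization again and 0.021 with cyclic loess, and -0.083 to 0.042 with 1 array left out, Hoxa6 ran from -0.046 to 0.12 and Hoxb7 from -0.056 to 0.0017. The cause was not tested. Replicate numbers did not pair the cultures by the labels, and deviations from the group means correlated at 0.24, 0.11 and 0.07 for numbers 1, 2 and 3. With the replicate number as a block 57 genes passed, 0 of them Hox genes, and the related lists kept 1. Signal near background limits what can be seen of most members, since 30 of 37 lay below the gauge in all arrays.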
